A study of Mus musculus with 14 samples.

Results

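The transcripts of 10 genes of interleukin-1 (IL-1), tumour necrosis factor (TNF) and transforming growth factor β (TGF-β) signalling were followed in the brains of 14 female mice. They are the ligands Il1a, Il1b, Tnf, Il18, Il33 and Tgfb1 and the receptors Tgfbr1, Tgfbr2, Tnfrsf1a and Il10ra, chosen by name, and all 10 were found among the 43346 genes of the count table. All mice were 23 months old, had the strain label C57BL/6;SJL-Tg, and gave a cross-section of the brain holding hippocampus and cortex, from which total RNA was sequenced. The 4 NTG mice (non-transgenic, numbered 7 to 10) and the 5 APP/PS1 mice (genotype label APP/PS1 +/+, numbered 16 to 20) drank water with the vehicle, 0.1% PEG, and their labels call them non-treated. The other 5 APP/PS1 mice (numbered 21 to 25) received CP2 in this drinking water, 25 mg/kg/day, starting at 9 months and lasting 14 months. APP/PS1 mice carry human APP and PS1 transgenes with familial Alzheimer's disease mutations, whose promoters are not given in the sources used here, and NTG mice were their female littermates. CP2 is a tricyclic pyrone that partially inhibits mitochondrial complex I. NTG mice given CP2 were not analysed here, so an effect of CP2 without the transgenes was not measured.

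IL-1α, IL-1β and TNF are proinflammatory cytokines that microglia, the resident macrophages of the brain, release when activated, and their receptors signal through the kinase TAK1 to the transcription factor NF-κB. IL-18 and IL-33 belong to the IL-1 family and use related receptors and the adaptor MyD88. IL-33 is stored in the nucleus of astrocytes and oligodendrocytes and acts as an alarm signal when cells are damaged. TGF-β1 is made in a latent form, is released by integrins, and signals through the receptor pair TGF-βRII and TGF-βRI to SMAD proteins. It keeps microglia in their homeostatic state and is counted, like IL-10, among the signals that restrain inflammation. Around amyloid plaques microglia and astrocytes are known to become activated.

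Total counts per mouse ranged from 70548781 to 106235625, so 1 count was worth 0.00941 to 0.0142 CPM, the counts scaled to a common library size. CPM values here use library sizes adjusted by edgeR's TMM factors over the 14 mice. Genes resembling ribosomal RNA took 4.72 to 7.50% in NTG, 2.40 to 5.51% in APP/PS1 and 4.49 to 7.40% of counts in CP2-treated mice. APP/PS1 mouse 16 stood apart. Its striatal markers (8 genes) summed to 2057 CPM, against 147 to 302 CPM in the other 13 mice, and its thalamic and habenular markers were the lowest of all, at 220 and 50.9 CPM. Its markers of T, B and NK cells (11 genes) summed to 23.3 CPM, against 1.20 to 3.69 CPM in the other 13 mice. Counts below are therefore also given without this mouse. The labelled tissue carried its markers in every mouse, with 458 to 592 CPM summed over 8 hippocampal genes and 353 to 535 CPM over 7 cortical genes.

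Markers of glia differed between the genotypes alongside the cytokine genes. The 17 microglial markers summed to 594 to 622 CPM in NTG mice. The sum was 1215 to 1831 CPM with the transgenes and 1032 to 1566 CPM after CP2, and 16 of 17 rose in vehicle-treated APP/PS1 mice, where 4.34% of all genes tested were called higher and 1.34% lower. The 11 markers of plaque-associated microglia had 12 tested rows, because Clec7a has more than 1. Of these 12 rows 9 rose, those of Clec7a included, and the list summed to 189 to 238, 281 to 441 and 283 to 392.4 CPM in the 3 groups. All 7 tested markers of reactive astrocytes rose, with sums of 482 to 742, 1394 to 3400 and 1631 to 2766 CPM. These marker counts cover all genes tested and may include some that entered the test only through their level in APP/PS1 mice. Of the other lists, the astrocyte genes Fgfr3 and Slc1a2 and the habenular gene Nr4a2 fell in APP/PS1 mice, and Cldn11 of oligodendrocytes, Pecam1 of endothelium and Hba-a1 and Hba-a2 of blood rose. No gene was called in the lists of border macrophages, T, B and NK cells (none above the level filter), neutrophils and monocytes, pericytes and mural cells, neurons, hippocampus, cortex, striatum, thalamus, choroid plexus, ependyma and meninges, in which edgeR gave between 0 and 6 genes an unadjusted p under 0.05. None of the markers in the 20 lists was at 0 in every mouse. For CP2-treated APP/PS1 against NTG, 5 of 10 endothelial genes and 5 of 8 genes of pericytes and mural cells were also called higher. Outside the microglial and reactive astrocyte lists, Aqp4, Cldn11 and Hba-a2 were called higher too, and Fgfr3, Gjb6, Slc1a2 and C1ql2 lower. Over all genes tested in this comparison 4.56% were called higher and 1.46% lower. For CP2 against vehicle edgeR called no gene of any of these lists, with 0 to 3 genes per list at an unadjusted p under 0.05. In such bulk tissue more cells of a type and more RNA per cell cannot be told apart, and the part of these shifts in the differences below was not tested.

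All positions are on mm10 as the count table gives them. Il1a lies on chromosome 2 from 129299610 to 129309972 and Il1b, on the same minus strand, from 129364570 to 129371139. Tnf lies on chromosome 17 from 35199381 to 35202007 (minus strand), Il33 on chromosome 19 from 29925114 to 29960718, and Tgfb1 on chromosome 7 from 25687002 to 25705077. Tgfbr1 is on chromosome 4 from 47353222 to 47414931, Tgfbr2 on chromosome 9 from 116087698 to 116175363 (minus strand), Tnfrsf1a on chromosome 6 from 125349362 to 125362484 and Il10ra on chromosome 9 from 45253837 to 45269149 (minus strand). Il18 was counted on chromosome 9 from 50575273 to 50581837 over 714 bases, a shorter model than that of GENCODE M21, which starts at 50554827 and has 1031 exonic bases. The counted lengths of Tgfb1 (2558 bases) and Tgfbr2 (4785 bases) were also below the 5042 and 8187 exonic bases of GENCODE.

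Reads of Il1a and Il1b cannot be fully told apart from those of overlapping genes, since a read was counted on each gene it overlapped and the strand setting is not stated. Il1a shares 222 exonic bases with Gm14023 on the opposite strand, which had 20 to 58 counts per mouse and mean levels of 0.361 (NTG), 0.451 (APP/PS1) and 0.503 CPM (CP2-treated). Il1b shares 25 exonic bases with the antisense gene Il1bos, at 1 to 15 counts per mouse. Gm20612 and Mir7086 lie within Il10ra but share no exonic base with it.

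The promoters of Il1a, Il1b and Tnf differ from those of the TGF-β genes in holding a TATA box near the start, and 5 of them are printed to show this. RefSeq (GRCm38.p6, the same assembly as mm10) gave 11 promoters for 9 of the 10 genes, each from 250 bases before to 50 bases after the start, and Il10ra was not in that table. Capitals mark the TATA box letters TATAAA and the letters GAGGAA, the core bound by PU.1, the lineage factor of microglia and macrophages, or their reverse complements. Il1a (chr2:129309923-129310222, minus strand), Il1b (chr2:129371090-129371389, minus strand), Tnf (chr17:35201958-35202257, minus strand), Tgfb1 (chr7:25686752-25687051, plus strand) and Tgfbr2 (chr9:116175314-116175613, minus strand) read 5′ to 3′ as follows.
Il1a: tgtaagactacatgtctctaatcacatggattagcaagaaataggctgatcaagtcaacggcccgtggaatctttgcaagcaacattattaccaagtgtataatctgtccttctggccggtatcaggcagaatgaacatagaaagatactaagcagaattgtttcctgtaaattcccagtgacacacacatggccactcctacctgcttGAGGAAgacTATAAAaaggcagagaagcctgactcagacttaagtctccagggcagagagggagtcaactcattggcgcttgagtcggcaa
Il1b: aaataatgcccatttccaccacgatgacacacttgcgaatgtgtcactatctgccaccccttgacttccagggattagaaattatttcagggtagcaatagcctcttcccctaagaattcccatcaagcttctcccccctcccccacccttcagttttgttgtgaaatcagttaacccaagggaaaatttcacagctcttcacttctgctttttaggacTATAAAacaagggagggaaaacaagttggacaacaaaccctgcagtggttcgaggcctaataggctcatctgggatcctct
Tnf: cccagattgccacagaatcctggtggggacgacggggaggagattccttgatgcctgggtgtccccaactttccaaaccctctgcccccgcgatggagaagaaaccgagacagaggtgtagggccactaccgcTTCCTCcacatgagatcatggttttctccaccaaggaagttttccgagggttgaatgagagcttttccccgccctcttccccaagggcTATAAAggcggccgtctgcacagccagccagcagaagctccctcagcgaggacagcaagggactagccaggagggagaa
Tgfb1: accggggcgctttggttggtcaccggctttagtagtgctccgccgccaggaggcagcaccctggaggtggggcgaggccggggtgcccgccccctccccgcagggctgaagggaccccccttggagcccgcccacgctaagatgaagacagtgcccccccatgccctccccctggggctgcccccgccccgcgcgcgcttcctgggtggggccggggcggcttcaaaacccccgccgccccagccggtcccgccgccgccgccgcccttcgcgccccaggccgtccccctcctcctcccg
Tgfbr2: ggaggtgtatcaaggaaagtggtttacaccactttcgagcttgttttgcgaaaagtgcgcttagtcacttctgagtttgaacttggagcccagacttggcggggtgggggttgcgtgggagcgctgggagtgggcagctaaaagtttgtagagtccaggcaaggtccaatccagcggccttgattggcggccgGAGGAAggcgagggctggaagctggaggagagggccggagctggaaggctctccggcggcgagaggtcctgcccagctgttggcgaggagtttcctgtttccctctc

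In Il1a, Il1b and Tnf the letters TATAAA began 32, 31 and 29 bases before the start, and in the second of the 2 promoters of Il33 they began 29 bases before it. They were also found 203 bases before the start in the first Il33 promoter and, on the minus strand, 175 bases before it in Il18. The windows of Tgfb1, Tgfbr1 (2 promoters), Tgfbr2 and Tnfrsf1a did not hold these letters on either strand. Of all 32851 promoters of this length 13.6% held them. The letters GAGGAA were present for 5 of the 9 genes (Il1a, Tnf, Il33, Tgfbr1 and Tgfbr2) and in 28.3% of all promoters, and in Il33 the match occurred in tandem. TGANTCA, the AP-1 site, was found for 1 gene, Il1a, 12 bases before the start (7.81% of all promoters). TTGCNNAA, a C/EBP site, was found for Il33 and Tgfbr2 (10.8%), and CAGAC, a SMAD-binding core, for 5 genes (49.6%), in Il1a overlapping the AP-1 site by 2 bases. The κB consensus was not found in any of the 11 windows and occurs in 4.51% of all promoters. The percentages are shares of promoters, while each gene was counted once. Il33 and Tgfbr1, with 2 promoters each, therefore had more windows for a match. All of these are matches of letters on both strands and not measured binding.

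Levels of different genes were compared on the RPKM values that the authors deposited, which divide by the counted length. In NTG mice Il33 was the most abundant transcript at 22.1 ± 1.36 RPKM (SD, n = 4), followed by Il18 at 11.5 ± 1.02 RPKM. The receptor pair came next, with Tgfbr1 at 4.51 ± 0.307 and Tgfbr2 at 3.69 ± 0.205 RPKM, and then Tnfrsf1a at 2.63 ± 0.295 RPKM. Il10ra at 1.42 ± 0.104 RPKM and Tgfb1 at 1.31 ± 0.123 RPKM overlapped between mice. The classical proinflammatory ligands were the lowest, with Il1a at 0.278 ± 0.0578, Il1b at 0.117 ± 0.0447 and Tnf at 0.0308 ± 0.0249 RPKM, of which Il1b and Tnf overlapped. In APP/PS1 mice the ends of this order were the same, with Il33 at 27.8 ± 4.48 RPKM and Tnf at 0.153 ± 0.0875 RPKM (SD, n = 5), but Tgfbr2 at 8.54 ± 1.48 RPKM now stood beside Tgfbr1 at 7.60 ± 1.34 RPKM, and the ranges of neighbours from Il18 through Il10ra overlapped. In CP2-treated mice the order was that of the vehicle-treated APP/PS1 mice, and Il1a (0.567 ± 0.163 RPKM) and Il1b (0.299 ± 0.118 RPKM) overlapped as well. Because Il18, Tgfb1 and Tgfbr2 were counted on shorter models than those of GENCODE, their place in the order depends on the model.

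**Figure D1:**
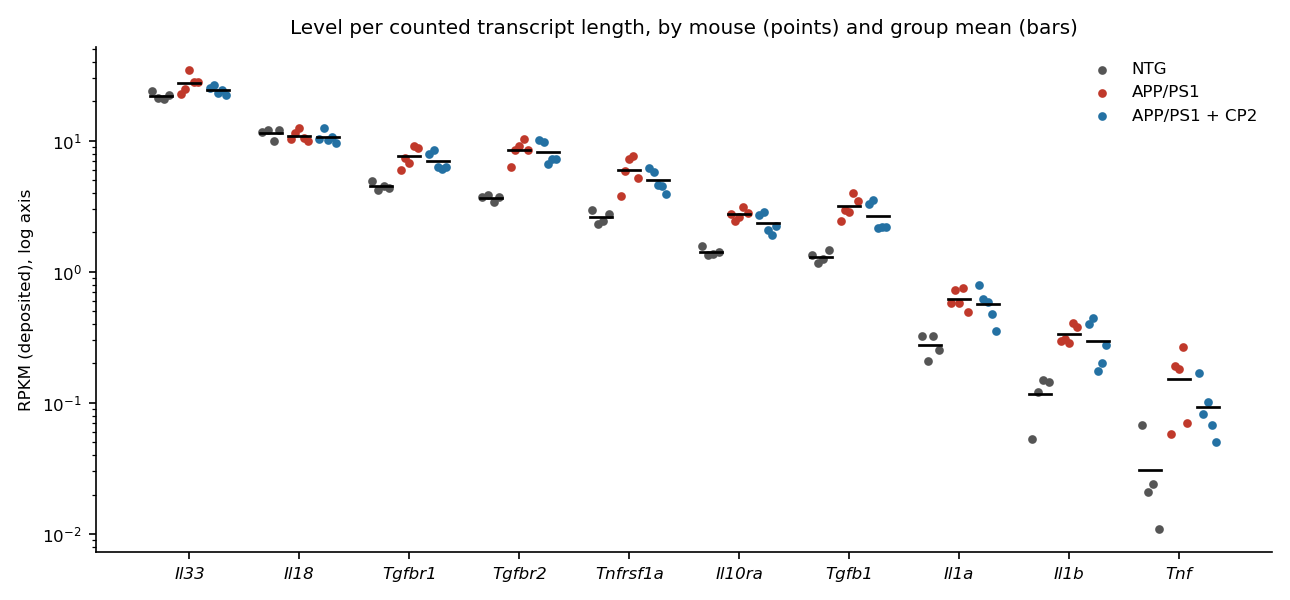
Deposited RPKM (log axis) of the 10 genes in each mouse (points), ordered by the mean in NTG mice, with group means as black bars. Il33 lies between mean values of 22.1 and 27.8 RPKM and Tnf at 0.153 RPKM or below in all group means, and Tgfbr2 passes Tgfbr1 in both APP/PS1 groups.

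The first comparison asks which of these signals differ between the diseased and the healthy brain. In vehicle-treated APP/PS1 mice, TGF-β1, both TGF-β receptors, the TNF receptor TNFR1 and the IL-10 receptor rose at the transcript level, between 1.61-fold (Tgfbr1) and 2.31-fold (Tgfb1) as ratios of mean CPM. Il1a and Il1b, although far lower in level, were 2.14 and 2.73 times their NTG means. Il18 and Il33 did not pass the test. Genes were tested with edgeR's quasi-likelihood test when all mice of either group were above 1 CPM and were called at a Benjamini-Hochberg adjusted p under 0.05. Of the 10 genes 8 passed this filter, among them Il1a only through its level in APP/PS1 mice. The other 7 were above 1 CPM in both groups, and 5 of these 7 were called, all higher. Over all 16417 genes tested 4.34% were called higher and 1.34% lower, and among the 15808 above 1 CPM in both groups 3.78% were called higher. Without APP/PS1 mouse 16 these 5 were called again. Il1a, which passed the filter only through APP/PS1 mice, brought the number to 6, as with all mice. For 7 of the 10 genes every APP/PS1 mouse lay above every NTG mouse. They were the 5 called genes above 1 CPM in both groups, Il1a, and Il1b, which was below the filter. Over the genes tested, which leave out Il1b, the pattern was seen in 5.93%.

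**Figure D2:**
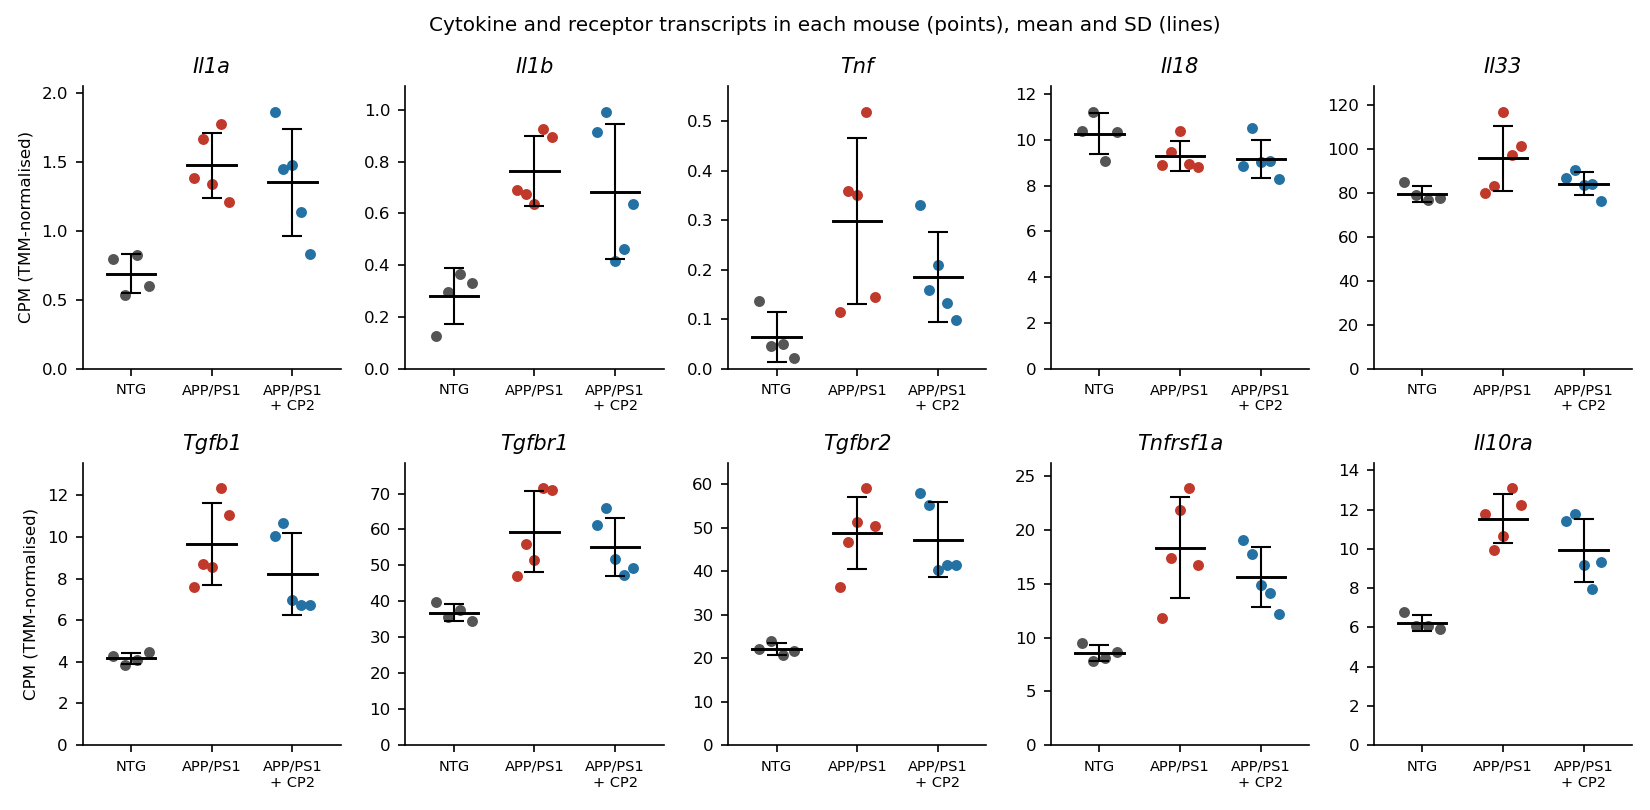
TMM-normalised CPM of each gene in each mouse (points) of the 3 groups, with the group mean and SD as lines and every axis from 0. In Il1a, Il1b, Tgfb1, Tgfbr1, Tgfbr2, Tnfrsf1a and Il10ra all 5 APP/PS1 mice lie above the 4 NTG mice, and the 2 APP/PS1 groups overlap for all 10 genes.

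Il1a, which encodes IL-1α, had 70, 36, 65 and 56 counts in NTG mice 7 to 10 (0.795, 0.535, 0.822 and 0.599 CPM). In APP/PS1 mice 16 to 20 it had 120, 148, 145, 143 and 109 counts (1.38, 1.67, 1.34, 1.77 and 1.21 CPM). The groups did not overlap. The exact two-sided permutation test on mean CPM (0.688 ± 0.142 against 1.47 ± 0.236, SD, n = 4 and 5) gave p = 0.00794, the smallest that 126 groupings allow. Because this gene entered the main test only through its APP/PS1 level, its fold change is taken from the fit without a filter on level, where log2 fold change was 1.09 (SE 0.20) with an edgeR adjusted p of 0.00845. The bases shared with Gm14023 leave part of these counts uncertain.

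Il1b, the gene of IL-1β, was lower still. NTG mice 7 to 10 had 11, 20, 29 and 31 counts, and APP/PS1 mice 16 to 20 had 60, 60, 69, 75 and 81 counts. In CPM these were 0.125 to 0.367 against 0.637 to 0.928, again without overlap (exact permutation p = 0.00794, n = 4 and 5, the smallest possible). Il1b stayed below the level filter, and the fit without a filter gave a log2 fold change of 1.44 (SE 0.30, edgeR adjusted p = 0.0219).

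Tnf, the founding cytokine of its family, had 12, 3, 4 and 2 counts in NTG mice and 10, 32, 38, 42 and 13 counts in APP/PS1 mice. The groups overlapped, since NTG mouse 7 at 0.136 CPM lay above APP/PS1 mouse 16 at 0.115 CPM, and the 5 APP/PS1 mice spread from 0.115 to 0.520 CPM. Mean levels were 0.0632 ± 0.0503 and 0.298 ± 0.168 CPM (SD, n = 4 and 5; exact permutation p = 0.0397). This p did not stay under 0.05 when any of NTG mice 8, 9 and 10 or APP/PS1 mice 17, 18, 19 and 20 was left out (exact p = 0.0536 to 0.0571), and edgeR without a filter gave an adjusted p of 0.0786 for a log2 fold change of 2.20 (SE 0.59). A rise of Tnf was therefore not established at this depth.

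Il33 was abundant and uneven among the APP/PS1 mice. It stood at 85.1, 79.0, 76.9 and 78.0 CPM in NTG mice and at 80.0, 83.2, 117, 97.4 and 101 CPM in APP/PS1 mice, 3 of which exceeded every NTG mouse. The log2 fold change of 0.27 (SE 0.11, 95% interval 0.04 to 0.51) had an unadjusted p of 0.0272 and an edgeR adjusted p of 0.193. Il18, which codes for another IL-1 family cytokine cleaved by caspase-1, ranged from 9.07 to 11.2 CPM in NTG and from 8.83 to 10.4 CPM with the transgenes. Its log2 fold change of -0.13 (SE 0.08, 95% interval -0.32 to 0.05, edgeR adjusted p = 0.446) did not pass the test.

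Tgfb1, the ligand of the TGF-β receptors, stood at 4.26, 3.87, 4.11 and 4.49 CPM in NTG mice 7 to 10 and at 7.59, 8.71, 8.54, 12.3 and 11.04 CPM in APP/PS1 mice 16 to 20. The lowest APP/PS1 mouse lay well above the highest NTG mouse, and the spread within APP/PS1 mice (SD 1.97 CPM) was larger than within NTG mice (SD 0.263 CPM). The log2 fold change was 1.21 (SE 0.15) with an edgeR adjusted p of 0.00121.

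Tgfbr2, the receptor subunit that binds TGF-β1 first, rose from 22.03, 24.01, 20.7 and 21.6 CPM in NTG to 36.3, 46.6, 51.4, 59.1 and 50.4 CPM in APP/PS1 mice (log2 fold change 1.15, SE 0.13, edgeR adjusted p = 0.000649). Its partner Tgfbr1, the kinase that phosphorylates SMAD2 and SMAD3, rose from 39.8, 35.5, 37.6 and 34.6 CPM to 47.1, 56.0, 51.4, 71.5 and 71.1 CPM (log2 fold change 0.70, SE 0.13, edgeR adjusted p = 0.0123). Mouse 16 was the lowest APP/PS1 mouse for Tgfb1 and both receptors, and it too lay above every NTG mouse.

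Tnfrsf1a encodes TNFR1, the receptor through which TNF activates NF-κB and cell death. It stood at 9.52, 7.84, 8.06 and 8.70 CPM in NTG and at 11.9, 17.4, 21.9, 23.9 and 16.8 CPM in APP/PS1 mice, where mouse 16 was again the lowest (log2 fold change 1.12, SE 0.19, edgeR adjusted p = 0.00593). Il10ra, the ligand-binding chain of the IL-10 receptor, measured 6.79, 6.07, 6.07 and 5.94 CPM in NTG and 11.8, 9.93, 10.6, 13.1 and 12.2 CPM in APP/PS1 mice (log2 fold change 0.90, SE 0.10, edgeR adjusted p = 0.000649). For both receptors every APP/PS1 mouse lay above every NTG mouse. In NTG mice the value of mouse 7 stood above the other 3, which lay between 5.94 and 6.07 CPM.

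The second comparison asks whether CP2 changed these transcripts in APP/PS1 mice. All 10 means were lower with CP2, by ratios of 0.623 (Tnf) to 0.984 (Il18), but none of the 10 genes separated the groups and none passed a test. These comparisons share the vehicle-treated APP/PS1 mice with the first one, so a low or high value in those mice enters both. Among the 8 genes tested edgeR called 0, with 0 at an unadjusted p under 0.05 and 0 called with DESeq2 or limma-voom. The background was as low, with 1 gene of 16407 called (0.00609%), 6.55% at an unadjusted p under 0.05, and 1.14% whose groups did not overlap in either direction. Leaving out mouse 16 left the number called at 0.

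For Tgfb1 mice 21 to 25 measured 10.04, 10.7, 6.95, 6.74 and 6.72 CPM, for Tgfbr2 58.0, 55.2, 40.3, 41.3 and 41.4 CPM, and for Tgfbr1 61.4, 66.0, 51.8, 47.4 and 49.2 CPM. Mice 21 and 22 were thus inside the upper part of the vehicle-treated range and the other 3 near or below its lower part. The log2 fold changes were -0.23 for Tgfb1 (95% interval -0.62 to 0.16), -0.04 for Tgfbr2 (-0.36 to 0.27) and -0.11 for Tgfbr1 (-0.41 to 0.19), with edgeR adjusted p of 0.805, 0.957 and 0.874.

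Il10ra measured 11.4, 11.8, 9.15, 7.97 and 9.30 CPM with CP2, and 3 of these 5 mice lay below every vehicle-treated APP/PS1 mouse (log2 fold change -0.22, 95% interval -0.48 to 0.04, unadjusted p = 0.0946, edgeR adjusted p = 0.749). Tnfrsf1a measured 19.1, 17.7, 14.9, 14.1 and 12.2 CPM (log2 fold change -0.23, 95% interval -0.63 to 0.16, edgeR adjusted p = 0.802). Il33 had the smallest unadjusted p of the 10 genes, 0.0775. Its CP2 values of 86.8, 90.4, 83.7, 84.3 and 76.6 CPM spread less (SD 5.07 CPM) than the vehicle-treated ones (SD 15.0 CPM), and the log2 fold change was -0.18 (95% interval -0.39 to 0.02, edgeR adjusted p = 0.749). Il18 ranged from 8.29 to 10.5 CPM and its log2 fold change was -0.02 (95% interval -0.19 to 0.14, edgeR adjusted p = 0.958).

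The low cytokines varied most between CP2-treated mice. Il1a had 163, 128, 113, 120 and 68 counts in mice 21 to 25 (0.831 to 1.86 CPM, exact permutation p = 0.563 against vehicle, n = 5 and 5). Il1b had 80, 88, 32, 49 and 52 counts (0.417 to 0.994 CPM, exact permutation p = 0.595), so mice 21 and 22 were among the highest of all 14 and 3 mice lay below the vehicle-treated range. Tnf had 29, 14, 16, 14 and 8 counts, a mean of 0.186 ± 0.0909 CPM against 0.298 ± 0.168 CPM (exact permutation p = 0.238). With 5 mice against 5 the smallest p of this test is 0.00794.

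**Figure D3:**
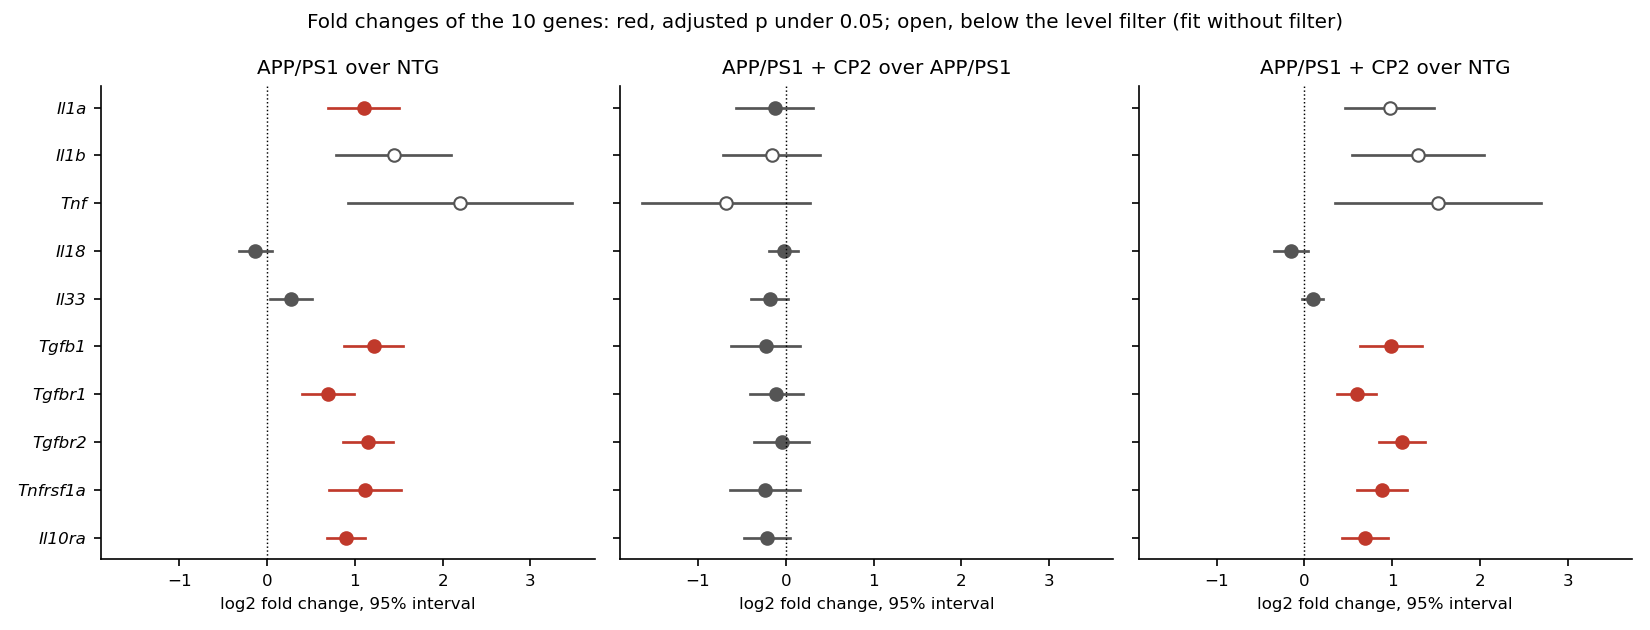
Log2 fold changes (points) with 95% intervals (lines) in the 3 comparisons, red for genes called by edgeR at an adjusted p under 0.05 and open for genes below the level filter, whose values come from the fit without it. Against NTG the TGF-β genes, Tnfrsf1a and Il10ra lie between 0.59 and 1.21 in both APP/PS1 groups, whereas all intervals between CP2 and vehicle include 0.

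Against NTG mice, CP2-treated APP/PS1 mice still had higher levels of the same receptors and of Tgfb1. Of the 7 genes tested 5 were called, all higher, beside 4.56% of 16416 genes called higher and 1.46% called lower. Tgfbr2 was 2.14 times the NTG mean (log2 fold change 1.11, SE 0.12, edgeR adjusted p = 0.000497) and Tgfb1 1.97 times (0.99, SE 0.16, adjusted p = 0.00423). Tnfrsf1a was 1.83 times (0.88, SE 0.13, edgeR adjusted p = 0.00217), Il10ra 1.60 times (0.69, SE 0.12, adjusted p = 0.00653) and Tgfbr1 1.496 times the NTG mean (0.59, SE 0.10, adjusted p = 0.00505). Neither Il33 (log2 fold change 0.09, edgeR adjusted p = 0.360) nor Il18 (-0.15, adjusted p = 0.368) passed.

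For 7 of the 10 genes, the called ones with Il1a and Il1b, every CP2-treated mouse lay above every NTG mouse. Over the genes tested, which leave out Il1a and Il1b, the same was seen in 6.00%. Il1a, below the filter in this comparison, gave an exact permutation p of 0.0159 (n = 4 and 5), and Il1b of 0.0238. Without NTG mouse 7 or 8 the value for Il1b was 0.0714 or 0.0536. Tnf gave an exact permutation p of 0.0476, which rose above 0.05 whichever of the 9 mice was left out (exact p = 0.0536 to 0.107). In the edgeR fit without a filter the adjusted p was 0.0417 for Il1a, 0.0729 for Il1b and 0.214 for Tnf.

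Mice of one group tended to be high or low for several of the 10 genes at once. Mouse 19 was the highest APP/PS1 mouse for 8 genes, all but Il18 and Il33, and mouse 16 the lowest for 6. Among CP2-treated mice, 21 was highest for 4 genes and 22 for the other 6, while mouse 25 was lowest for 6. After subtracting group means, log2 CPM of Tgfb1 correlated over the 14 mice with Tgfbr1 (Pearson r = 0.92), Tgfbr2 (0.85), Il10ra (0.79) and Tnfrsf1a (0.72). Tnfrsf1a had r of 0.85 with Tgfbr2 and of 0.42 with Il10ra, and Il18 had r of 0.04 to 0.39 with the 4 receptors. These values describe the same libraries, which share depth and dissection, and carry no p.

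The same mice ordered the microglial markers. The summed 17 markers were 1215, 1460, 1433, 1831 and 1743 CPM in APP/PS1 mice 16 to 20 and 1486, 1566, 1267, 1086 and 1032 CPM in CP2-treated mice 21 to 25. Within groups their log2 sum correlated with Tgfb1 and Tgfbr1 at r = 0.94, Tgfbr2 at 0.85, Tnfrsf1a at 0.77 and Il10ra at 0.72 (n = 14 mice), and with Il18 at 0.24. The reactive astrocyte sum correlated with Tnfrsf1a at r = 0.91, Tgfbr2 at 0.90 and Tgfb1 and Tgfbr1 at 0.82. Tnfrsf1a also had r of 0.87 with plaque-associated microglia, 0.79 with oligodendrocytes, 0.53 with endothelium and 0.36 with astrocytes, so its correlations were not particular to microglia. At low counts, Tnf had r of 0.82 with oligodendrocytes and 0.50 with microglia, and Il1b 0.71 with astrocytes and 0.47 with microglia. Il33 had r of 0.74 with the sum of plaque-associated microglia, 0.72 with oligodendrocytes, 0.69 with reactive astrocytes, 0.66 with endothelium, 0.51 with microglia and 0.09 with astrocytes. The lists do not contain any of the 10 genes.

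**Figure D4:**
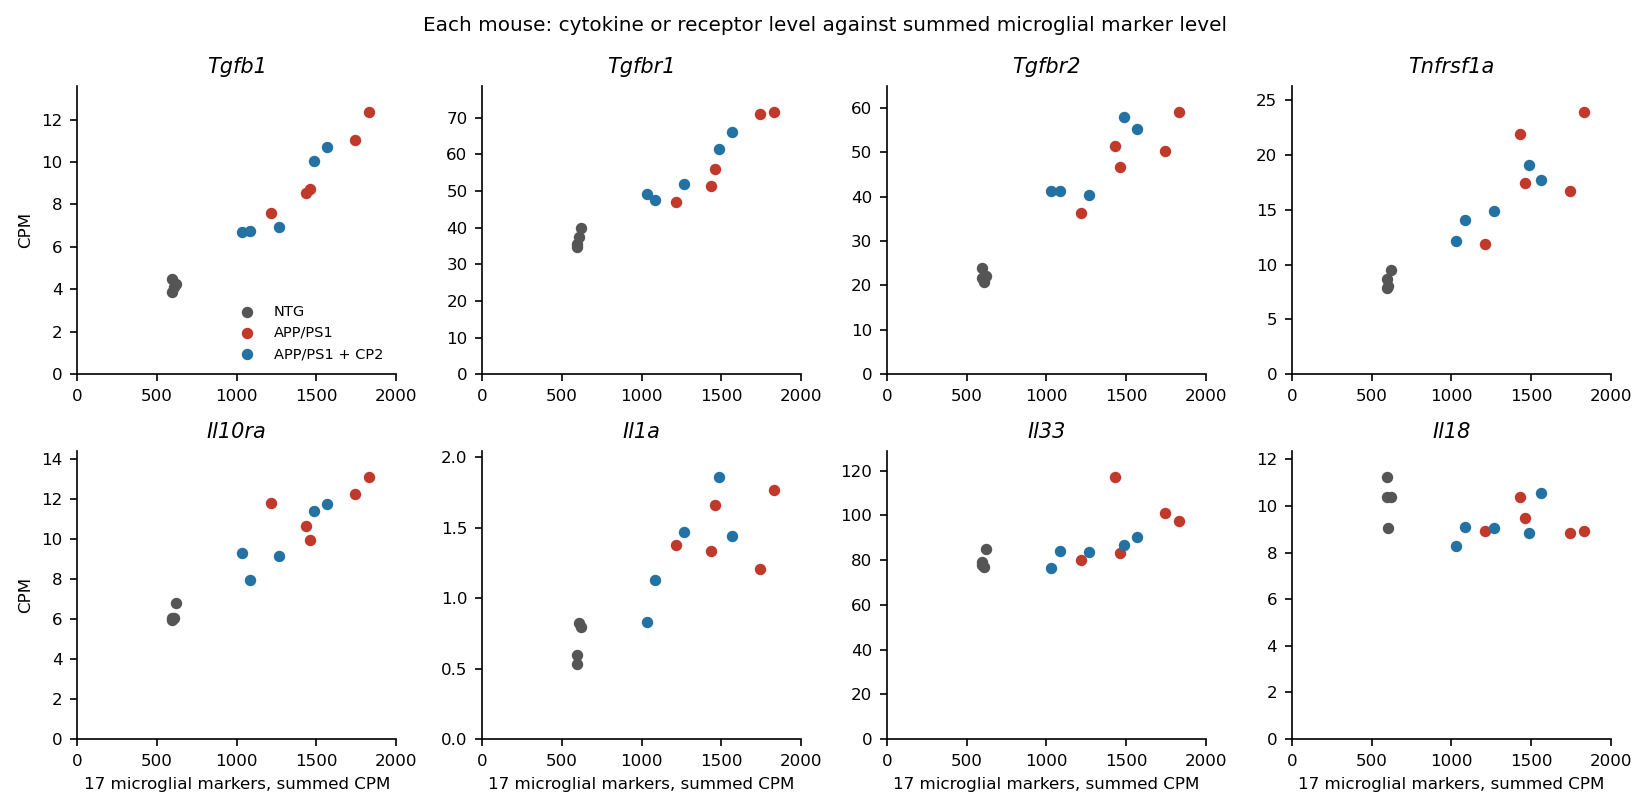
CPM of 8 genes in each mouse (points, coloured by group) against the summed CPM of 17 microglial markers, all axes from 0. The 4 NTG mice cluster at 594 to 622 CPM of markers, the APP/PS1 mice of both groups spread from 1032 to 1831 CPM, and Tgfb1 and Tgfbr1 rise along the markers within groups (r = 0.94) more than Il18 does (r = 0.24).

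The genes most like each of the 10 by the same measure were taken from 16513 others. Tgfb1 was followed most closely by Itgb2, the β2 integrin of myeloid cells (r = 0.98), Hexa, a lysosomal hexosaminidase subunit (0.98), and 4632428N05Rik (0.98). Tgfbr2 was followed by Fam129b (0.99), Sgpl1 (0.98) and the tetraspanin gene Cd9 (0.95), and Tgfbr1 by Tbxas1 (0.94), Myo1f (0.94) and Cmklr1 (0.94). For Tnfrsf1a they were Lamp1 of the lysosomal membrane (0.98), Gpr37l1 (0.98) and Cd38 (0.97), and for Il10ra Card9 (0.89), Arl5c (0.89) and Slc25a45 (0.88). Il33 went with Zfp28 (0.95), Dap (0.94) and the myelin gene Pllp (0.93). Il1a went with Ptafr (0.90), Zfp708 (0.89) and Gm11539 (0.89), Il1b with Gm10501 (0.89), Zfp560 (0.87) and Hspa1l (0.86), and Il18 with Csrp2 (0.89), Osr1 (0.87) and C530005A16Rik (0.87). Tnf, below 10 counts in some mice, was left out of this search. The genes named were picked as the highest r among 16513, so high values can arise by chance. The level that chance alone would reach was not tested. The values for Il1a, Il1b, Il18 and Il10ra, at 0.86 to 0.90, were the lowest listed and do not establish shared expression.

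Around the 10 genes, 7 lists of pathway partners were examined, and in each some genes were called higher in APP/PS1 mice and none lower. The counts are to be read against the 4.34% of all tested genes called higher and 1.34% called lower. Some list genes entered the test only through their higher level in APP/PS1 mice, a route that favours genes that differ. The first count of each list therefore covers the genes above 1 CPM in every mouse of both groups, of which 3.78% were called higher over the whole table, and genes outside it are given from the fit without a filter, a choice made after seeing the data. In the IL-1 family list 2 of 10 such genes rose (3 of 11 tested). These were Irak3, an inhibitory kinase homologue, from 1.34 to 2.43 CPM (log2 fold change 0.86, edgeR adjusted p = 0.0227), and the receptor-proximal kinase Irak4 from 8.19 to 9.97 CPM (0.29, adjusted p = 0.0356). Il1rl2, the IL-36 receptor, passed only through APP/PS1 mice and went from 0.944 to 2.18 CPM (67 to 94 against 153 to 242 counts; without a filter, log2 fold change 1.20, edgeR adjusted p = 0.00121). The adaptor Myd88 stood at 4.48 and 5.76 CPM and did not pass (log2 fold change 0.37, edgeR adjusted p = 0.0701). The list's median log2 fold change was 0.000579, that of all genes tested -0.00421. Il1rn, the natural antagonist of the IL-1 receptor, was below the filter at 2 to 52 counts per mouse (0.0563 CPM in NTG and 0.345 CPM in APP/PS1 mice, groups overlapping) and is named after its values were seen.

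In the TNF receptor and NF-κB list 2 of 27 genes above 1 CPM in both groups rose (3 of 29 tested, median log2 fold change 0.22). Tab2, an adaptor of TAK1, rose from 63.1 to 73.8 CPM (0.23, edgeR adjusted p = 0.00825) and Birc3, a ubiquitin ligase of the TNFR1 complex, from 2.36 to 3.40 CPM (0.53, adjusted p = 0.0383). Bcl3, an IκB family member that acts in the nucleus with NF-κB p50 and p52, passed only through APP/PS1 mice and stood at 0.485 ± 0.138 and 3.21 ± 1.4 CPM (24 to 53 against 163 to 471 counts). Without a filter its log2 fold change was 2.72 (SE 0.33, edgeR adjusted p = 0.000547). Tnfrsf1b, the other TNF receptor, stood at 5.14 and 7.39 CPM with an edgeR adjusted p of 0.0596.

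Of the other TNF superfamily ligands and receptors 3 of 13 above 1 CPM in both groups rose (5 of 16 tested, median 0.38). They were the death receptor gene Fas (log2 fold change 0.94), Tnfrsf13b (0.82) and Tnfrsf11a (0.40), with edgeR adjusted p of 0.0151, 0.0291 and 0.0326. Tnfsf8, the CD30 ligand, passed only through APP/PS1 mice and stood at 0.196 ± 0.0708 and 1.71 ± 0.420 CPM (8 to 26 against 88 to 211 counts). Without a filter its log2 fold change was 3.09 (SE 0.30, edgeR adjusted p = 0.000123).

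In the TGF-β pathway list 3 of 24 genes above 1 CPM in both groups rose (4 of 25 tested, median 0.05). Nrros, which anchors latent TGF-β1 on microglia, rose from 5.28 ± 0.797 to 9.78 ± 0.840 CPM (log2 fold change 0.90, SE 0.11, edgeR adjusted p = 0.00144). Acvrl1, a type I receptor of the family best known from endothelium, rose from 8.77 to 13.7 CPM (0.65, adjusted p = 0.0180) and Smad2 from 23.4 to 28.1 CPM (0.27, adjusted p = 0.0344). Tgif1, a corepressor of SMADs, passed only through APP/PS1 mice, at 1.26 and 3.40 CPM (78 to 147 against 198 to 369 counts; without a filter, log2 fold change 1.43, edgeR adjusted p = 0.00167). Among the TGF-β target genes 2 of 13 above 1 CPM in both groups rose (3 of 14 tested, median 0.26). Id1 and Id3 rose by 0.42 and 0.38 on the log2 scale (edgeR adjusted p = 0.0218 and 0.0270). Pmepa1, a feedback inhibitor of SMAD signalling, stood at 27.6 and 39.4 CPM with an edgeR adjusted p of 0.0749.

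The IL-10 list also holds Il4ra and Il13ra1, which are chains of the IL-4 and IL-13 receptors and not of the IL-10 receptor. With these included, 5 of its 7 genes above 1 CPM in both groups rose (5 of 8 tested, median 0.48). Stat3, the transcription factor of the IL-10 receptor, went from 50.2 to 81.8 CPM (log2 fold change 0.71, edgeR adjusted p = 0.00120), Il13ra1 from 7.83 to 13.7 CPM (0.81, adjusted p = 0.00472), Socs3, a STAT3-induced inhibitor, from 2.76 to 5.96 CPM (1.12, adjusted p = 0.00672) and Il4ra from 8.64 to 11.8 CPM (0.46, adjusted p = 0.0350). Il10 itself had 0 to 4 counts per mouse. Of the other cytokines 1 of 4 above 1 CPM in both groups rose (2 of 5 tested), the microglial growth factor Csf1 (25.3 to 39.8 CPM, log2 fold change 0.66, edgeR adjusted p = 0.00560). Lif passed only through APP/PS1 mice, at 0.992 and 2.53 CPM (51 to 111 against 137 to 328 counts; without a filter, log2 fold change 1.34, edgeR adjusted p = 0.0151). Il16 and Il4 did not pass, at edgeR adjusted p of 0.316 and 0.669. Below the filter, and named outside the rule, Il6 had 2 to 14 counts and Ifng 0 to 9 counts per mouse, and Il17a had 0 counts in every mouse, which allows up to 0.0282 to 0.0425 CPM.

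Without mouse 16 the numbers of tested genes that rose were 5 of 11 in the IL-1 family, 7 of 29 in the TNF receptor and NF-κB, 4 of 25 in the TGF-β pathway, 6 of 15 in the TGF-β target, 5 of 8 in the IL-10, 7 of 17 in the other TNF superfamily and 2 of 5 in the other cytokine list, an alternative chosen after seeing the data, and again none fell. The share over all genes rose as well, to 6.62% called higher and 2.30% lower of 16523. For CP2 against vehicle edgeR called no gene of the 7 lists, with all mice or without mouse 16. Against NTG mice, CP2-treated mice had 2 of 12, 5 of 29, 5 of 25, 2 of 14, 2 of 8, 5 of 15 and 2 of 5 tested genes of these lists called higher, in the same order, and none lower, beside 4.56% and 1.46% of all genes. Of those above 1 CPM in both groups 1 of 10, 4 of 27, 4 of 24, 1 of 13, 2 of 8, 3 of 13 and 1 of 4 were called higher, beside 4.15% of 15927 genes. In the CP2 comparison with vehicle, at an unadjusted p under 0.05, the lists held 2, 1, 3, 2, 0, 1 and 0 genes. Nrros had the smallest p, with 9.78 ± 0.840 CPM in vehicle-treated and 7.23 ± 0.227 CPM in CP2-treated mice, whose values did not overlap (log2 fold change -0.43, SE 0.07, unadjusted p = 9.35e-05, edgeR adjusted p = 0.511). Id3 (32.9 and 27.9 CPM, unadjusted p = 0.00557), Fas (2.99 and 2.07 CPM, 0.00520), Irak2 (19.5 and 17.5 CPM, 0.0351) and Irak3 (2.43 and 1.91 CPM, 0.0406) were lower with CP2 and had edgeR adjusted p of 0.744, while Traf3 (62.7 and 72.5 CPM, 0.0206) and Ltbp4 (51.0 and 61.0 CPM, 0.0215) were higher with the same adjusted p.

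**Figure D5:**
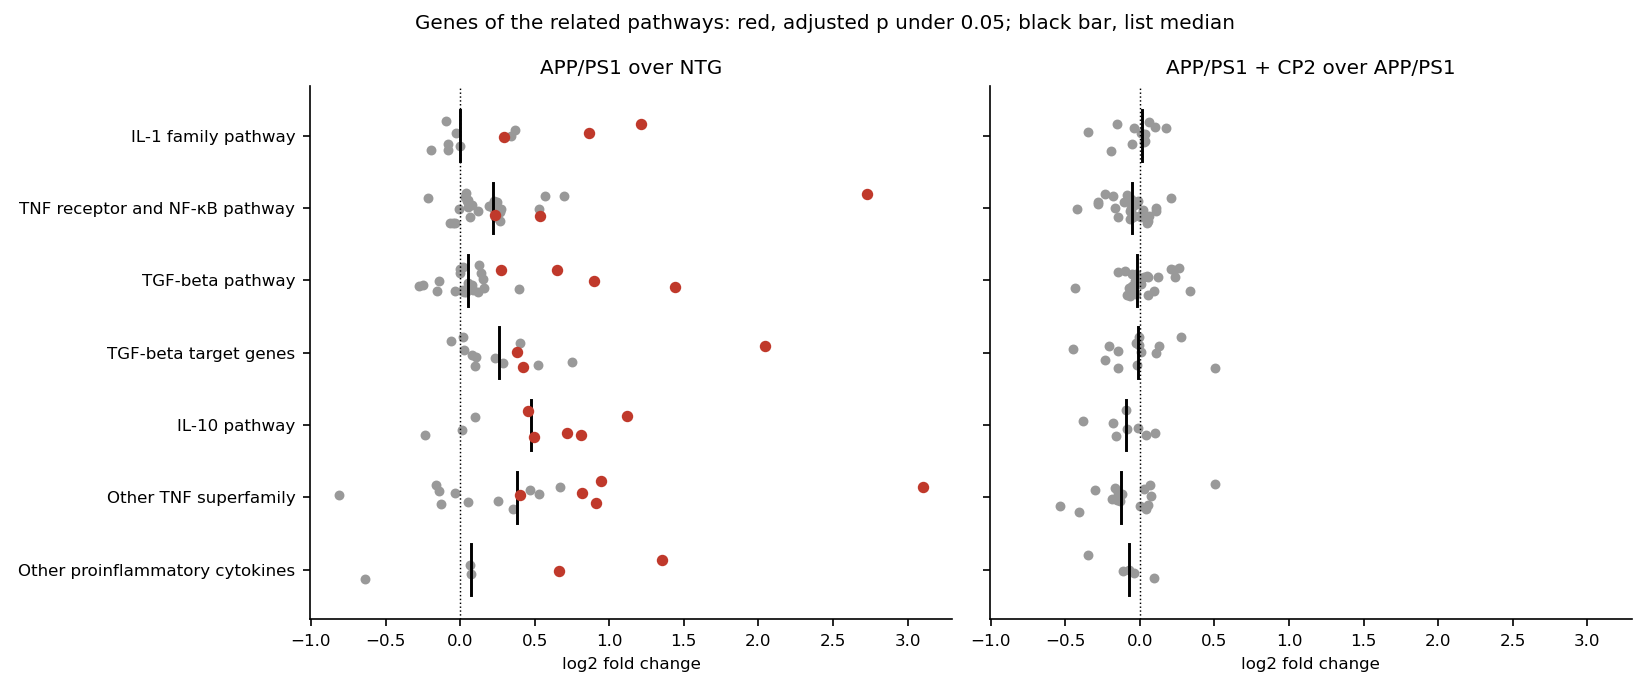
Log2 fold changes of the tested genes of the 7 lists (points; red, edgeR adjusted p under 0.05; black bar, list median) in APP/PS1 over NTG and in CP2 over vehicle. The red genes all lie to the right, no gene is red in the CP2 comparison, and the values farthest right include Tnfsf8 (3.10) and Bcl3 (2.73), which were tested only through their level in APP/PS1 mice.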

How the data were processed

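RNA was sequenced from 14 brains. The authors prepared TruSeq libraries, sequenced 101-bp paired ends, aligned reads to mm10 (TopHat, per the submitters' processing notes) and ran featureCounts on the Ensembl annotation with reads assigned to all genes they overlap. The deposited table holds raw read counts per gene and RPKM values computed by the authors, the latter used only to compare levels between genes. The strand setting is not given in the sources used here. Nothing states whether brains were processed in batches.

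Each pair of groups was fitted alone with the edgeR 4.0.16 quasi-likelihood test (R 4.3.3), TMM factors and p-values adjusted by Benjamini-Hochberg across all tested genes. As in the study's script, genes needed an FPM value over 1 (DESeq2's robust estimate) in every mouse of at least 1 group. Standard errors are those implied by the F statistic. Il1a, Il1b and Tnf were also tested by exact permutation of mean CPM over mice. The edgeR procedure was tested on data simulated with 200 changed genes per comparison, at a log2 change of 1 in either direction. It recovered 91.5% of them for APP/PS1 against NTG, 94.5% for CP2 against vehicle and 98% for CP2-treated APP/PS1 against NTG. In the same order, false calls made up 7.11, 4.55 and 2.97% of the genes called at an adjusted p under 0.05. Alternatives were DESeq2 1.42.0, limma-voom (limma 3.58.1) with quality weights, RLE or upper-quartile factors, no filter, at least 10 counts in every mouse, 1 fit of all groups, the ribosomal RNA share as covariate, log2 CPM (prior count 2), CPM by library total, and each mouse left out.

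The 10 genes, the 7 pathway lists and the 20 marker lists were chosen with earlier results of these data known. Named pathway genes are the up to 4 with the smallest p in APP/PS1 against NTG and the up to 2 in CP2 against vehicle per list, except for 1 that is not reported here, and likeness was taken for genes with at least 10 counts in every mouse. P-values set the differences between groups against the spread between mice. Floors are 3 counts and cover counting error only, since reads carried no molecular identifiers.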

Additional observations from a re-analysis of the deposited data

Results flagged for a closer look

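Among the 30 sets of CPM values examined (10 genes in 3 groups), 1 had a mouse far from the others of its group. Il10ra in NTG mouse 7 was 6.79 CPM, while the other 3 NTG mice lay between 5.94 and 6.07 CPM, a gap of 0.848 of the group's range which is above Dixon's 95% critical value for 4 mice. About 1 in 20 such sets would be picked out by chance, so 1 of 30 is not a pattern. All 5 APP/PS1 mice (9.93 to 13.1 CPM) and all 5 CP2-treated mice (7.97 to 11.8 CPM) lay above mouse 7.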

How the results depend on the processing

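The number of the 10 genes called by edgeR was 6 to 7 for APP/PS1 against NTG and 5 to 6 for CP2-treated APP/PS1 against NTG under all alternatives run, and 0 throughout for CP2 against vehicle. The 6 include Il1a, which entered the test only through its level in APP/PS1 mice. The 6 and 5 genes called kept their direction and their side of the threshold in each alternative that tested them. Between CP2 and vehicle the sign of small differences turned when 1 mouse was left out: the Il1a mean difference ranged from -0.252 to 0.00557 CPM (positive without mouse 25), the log2 fold change of Il18 from -0.0778 to 0.0174 (positive without mouse 18 or 25) and that of Tgfbr2 from -0.133 to 0.0376 (positive without mouse 19, 23 or 24). Of Il1a, Il1b and Tnf, 3 passed the exact permutation test for CP2-treated transgenic against NTG mice, and 1 to 2 with a mouse left out, 1 without NTG mouse 7 or 8. The smallest p that these smaller groups allow is larger, so such losses follow in part from the fewer mice. Over all genes, DESeq2 called 1667 in place of 932 genes for APP/PS1 against NTG (limma-voom 1563), 1670 in place of 989 for CP2-treated APP/PS1 against NTG and 23 in place of 1 for CP2 against vehicle, and with a mouse left out the first 2 counts ranged from 578 to 1474 and from 572 to 1123. The cause was not tested. No paired analysis was possible because the groups share no replicate numbers. Depth limits Tnf most, at 2 to 42 counts per mouse.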
